A study of Mus musculus with 12 samples.

Results

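Transcripts of the endoplasmic reticulum (ER) folding machinery and of the unfolded protein response were compared between alveolar macrophages of mice that had breathed ozone and of mice that had breathed filtered air. Alveolar macrophages are the resident phagocytes of the airspaces. The set held 38 genes, taken by symbol from the 55291 symbols of the deposited table. All 38 were found there, no mouse lay at a shared lowest value in any of them, and all were among the 19633 genes tested. They were read in 5 classes, namely 3 sensor and transcription factor genes, 14 chaperones, 5 disulfide isomerases, 11 genes of ER-associated degradation and 5 genes of the translocon and of ER export.

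Polyadenylated RNA of flow-sorted cells was sequenced from 12 female C57BL6/NJ mice aged 8 to 11 weeks, 6 exposed to 0.8 ppm ozone and 6 to filtered air. Exposures lasted 4 h on each of 4 days, and lungs were taken 3 days after the last. No transgene, deletion or drug is named for either group. Each group was sorted in 2 batches of 3 mice, so that exposure and flow-sort batch were balanced. The labels name each mouse by its own identifier. The title of the series names pulmonary tolerance to ozone, so the comparison describes cells after a repeated exposure and a recovery period.

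Values were variance-stabilized expression on a log2 scale. For all genes the filtered-air group averages 0, so a value states a distance from filtered air and no level, and genes cannot be ranked by abundance. The total number of reads is unknown. Variance stabilization draws small counts together, so a difference in a gene with few reads is understated. In a bulk sort, fewer cells of a type and less RNA per cell cannot be told apart. RNA integrity numbers ran from 9.2 to 9.7 after ozone and from 8.9 to 9.7 in filtered air. All 12 listed alveolar macrophage markers were among the genes tested, with 5 higher and 7 lower means after ozone and a median difference of -0.036. Of these, Chil3 and Car4 were called higher and Ear1 and Krt79 lower in limma, beside 4.25% of all genes called. The abundance of the markers could not be checked on this scale.

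Proteins that enter the secretory pathway pass through the translocon into the ER lumen, where chaperones and disulfide isomerases fold them. When unfolded protein builds up, membrane sensors (IRE1, ATF6 and PERK) start the unfolded protein response, which raises the folding enzymes and the machinery that sends misfolded protein back to the cytosol for degradation. IRE1 splices the mRNA of Xbp1 into a form that encodes an active transcription factor, and ATF6 is cut in the Golgi to release another. Secretory cells such as plasma cells depend on this programme, and in alveolar macrophages it serves a large load of secreted, lysosomal and surface proteins.

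ATF6 and XBP1 are known to act through the ER stress response element (ERSE), in which the letters CCAAT and CCACG stand 9 bases apart (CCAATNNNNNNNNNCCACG). This element was sought on both strands of the 250 bases upstream of the start of each gene in the RefSeq promoter table (GRCm38.p6, the assembly of the mm10 build that the submitters' processing notes name). A window was found for 31 of the 38 genes. The element was present in 9 of these 31 (29%) and in 35 of the 27025 genes with a window (0.13%). The matches are printed because they mark the members that share this known control element, in the direction of the motif and with its fixed letters in capitals.
Hspa5, chr2:34772025-34772043, plus strand: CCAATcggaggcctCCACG
Hsp90b1, far site, chr10:86705638-86705656, minus strand: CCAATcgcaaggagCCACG
Hsp90b1, near site, chr10:86705533-86705551, plus strand: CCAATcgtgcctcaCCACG
Calr, chr8:84847075-84847093, plus strand: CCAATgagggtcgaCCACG
Canx, chr11:50325800-50325818, minus strand: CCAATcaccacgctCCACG
Dnajc3, chr14:118937827-118937845, plus strand: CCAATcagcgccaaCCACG
Pdia6, chr12:17266491-17266509, plus strand: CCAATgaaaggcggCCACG
Creld2, chr15:88819520-88819538, minus strand: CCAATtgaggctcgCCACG
Syvn1, chr19:6046532-6046550, plus strand: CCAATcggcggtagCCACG
Derl3, chr10:75893242-75893260, minus strand: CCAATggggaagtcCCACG
In Hspa5 the element lay 65 to 47 bases before the start, and in Hsp90b1 the far site lay 212 to 194 bases and the near site 107 to 89 bases before it. The related element ERSE-II, in which ATTGG and CCACG stand 1 base apart, was found in 1 member, Herpud1, and in 10 of the 27025 genes with a window (0.037%). The core TGACGTGG, bound by XBP1, was found in 1 member, Sec24d, and in 163 of the 27025 (0.603%). None of these motifs overlapped another in a member. A match describes the letters and shows neither binding nor use.

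Upstream windows of Hspa5 and Hsp90b1, which hold the element, are set beside those of Sdf2l1, Edem2 and Xbp1, the 3 genes that differed between the exposures. Each runs 5′ to 3′ on the strand of its gene and ends at the base before the start, with the fixed letters of the element in capitals.
Hspa5, chr2:34771840-34772089, plus strand: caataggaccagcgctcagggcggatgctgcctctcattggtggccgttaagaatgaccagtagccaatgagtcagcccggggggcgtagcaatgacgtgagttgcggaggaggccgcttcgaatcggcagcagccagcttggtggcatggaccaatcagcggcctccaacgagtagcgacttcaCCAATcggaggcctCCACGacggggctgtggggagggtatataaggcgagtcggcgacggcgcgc
Hsp90b1, chr10:86705445-86705694, minus strand: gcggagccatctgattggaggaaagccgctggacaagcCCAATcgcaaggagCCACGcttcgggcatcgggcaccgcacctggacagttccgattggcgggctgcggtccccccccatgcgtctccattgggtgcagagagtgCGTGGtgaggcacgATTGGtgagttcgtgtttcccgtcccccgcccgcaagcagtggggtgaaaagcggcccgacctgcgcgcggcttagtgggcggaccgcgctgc
Sdf2l1, chr16:17132384-17132633, minus strand: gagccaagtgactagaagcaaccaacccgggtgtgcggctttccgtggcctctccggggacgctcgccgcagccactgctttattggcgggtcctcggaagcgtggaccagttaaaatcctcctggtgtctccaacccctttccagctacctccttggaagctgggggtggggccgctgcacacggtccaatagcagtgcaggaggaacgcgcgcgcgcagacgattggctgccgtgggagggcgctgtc
Edem2, chr2:155729476-155729725, minus strand: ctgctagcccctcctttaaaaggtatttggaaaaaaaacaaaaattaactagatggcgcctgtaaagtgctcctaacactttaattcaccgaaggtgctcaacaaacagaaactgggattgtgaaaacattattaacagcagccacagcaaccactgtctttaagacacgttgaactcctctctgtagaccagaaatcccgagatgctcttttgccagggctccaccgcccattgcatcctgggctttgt
Xbp1, chr11:5520391-5520640, plus strand: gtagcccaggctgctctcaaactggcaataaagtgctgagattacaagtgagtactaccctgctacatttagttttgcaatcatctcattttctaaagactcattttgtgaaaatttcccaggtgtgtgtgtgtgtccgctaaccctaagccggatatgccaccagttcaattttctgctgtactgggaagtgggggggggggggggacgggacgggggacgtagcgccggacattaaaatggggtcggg
None of the 3 motifs was found in the windows of Sdf2l1, Edem2 and Xbp1, which says only that these letters are not in these 250 bases.

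Ozone was followed by higher Sdf2l1 and Edem2 and lower Xbp1, and the other 35 members did not pass the test. Over all genes 4.25% were called (limma, adjusted p under 0.05), 2.41% higher and 1.84% lower, and among the members 3 of 38 were called (7.89%). The called members were few, and their share says nothing of the set as a whole. After quantile normalization, which forces all mice to 1 distribution, none of the 3 passed, with differences of 0.25 for Sdf2l1, 0.14 for Edem2 and -0.16 for Xbp1 and limma's adjusted p-values of 0.0941, 0.0700 and 0.168. Means were higher after ozone in 30 members and lower in 8, beside 48% of all genes with a higher mean. Members moved together within a mouse, so these are not independent observations. Ozone mouse 1 held the top value of its group in 20 of the 38, and filtered-air mouse 6 the bottom value in 22. The median difference was 0.056 over the members and -0.0033 over all genes. At an unadjusted p under 0.05 in limma there were 11 members, 9 higher and 2 lower, or 28.9% beside 16.7% of all genes. This count depended on single mice. It was 7 (18.42%, beside 15.85% of all genes) without filtered-air mouse 6 and 12 (31.58%, beside 15.41%) without ozone mouse 5. In flow-sort batch 1 alone it was 3 (7.9%, beside 11.04%), and in batch 2 alone 6 (15.79%, beside 9.17%). Groups did not overlap in 3 members, the same genes as those called, beside 3.53% of all genes.

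**Figure D1:**
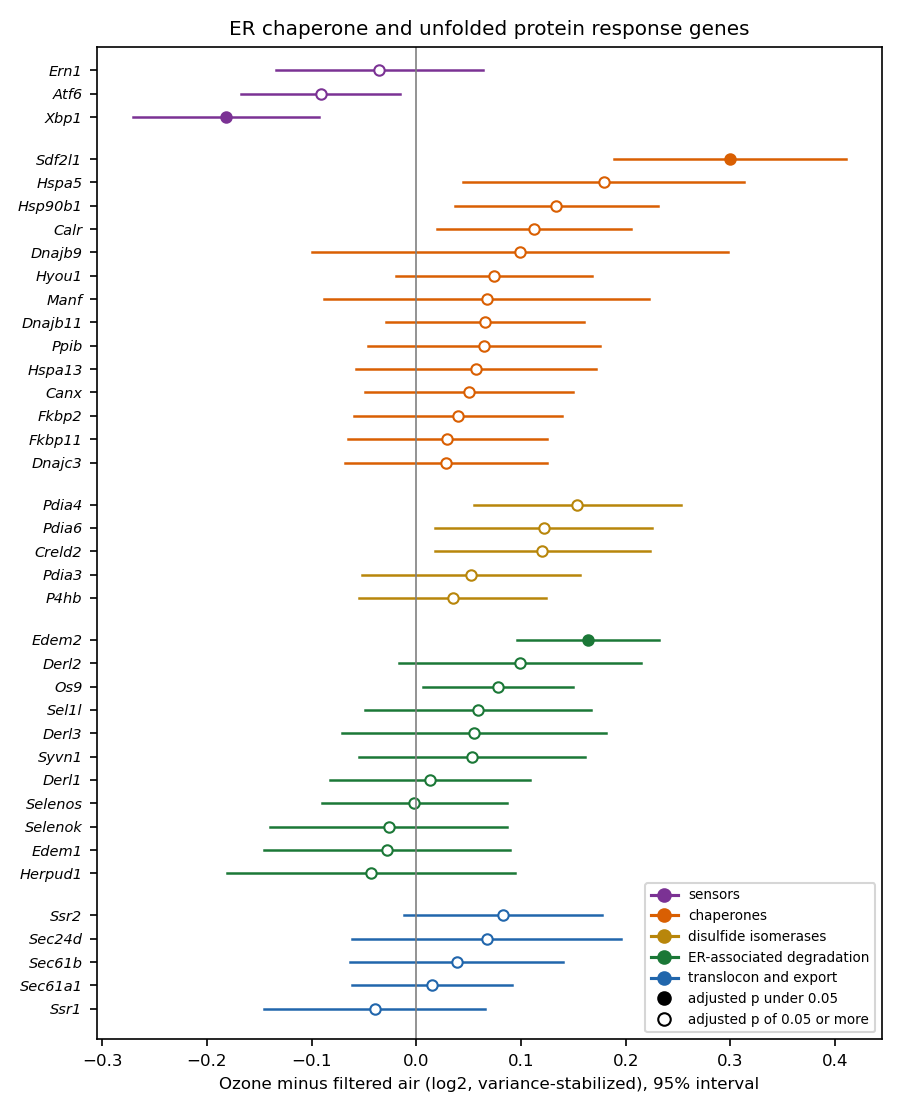
Ozone minus filtered air for each of the 38 members (horizontal axis, log2), grouped by class on the vertical axis, with 95% intervals from limma over 6 against 6 mice. Filled points passed an adjusted p of 0.05, which held for Sdf2l1, Edem2 and Xbp1. All 14 chaperones and all 5 disulfide isomerases lie to the right of 0. The 3 sensor and transcription factor genes (Xbp1, Atf6 and Ern1) lie to the left.

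The 3 sensor and transcription factor genes all had lower means after ozone, and Xbp1 passed the test. The gene of the sensor PERK, Eif2ak3, was not a member and had a higher mean (0.098, limma's adjusted p = 0.384). Xbp1 (chr11:5520641-5525993) encodes the transcription factor of the IRE1 branch. Its values ran from -0.25 to -0.15 after ozone with a median of -0.17, and from -0.093 to 0.13 in filtered air with a median of -0.010. All 6 ozone mice lay below every filtered-air mouse. Xbp1 fell by 0.18 (SE 0.042, 95% interval -0.27 to -0.093, limma's adjusted p = 0.0234). The adjusted p rose above the threshold without filtered-air mouse 1 (0.0560), filtered-air mouse 5 (0.0505) or ozone mouse 5 (0.0565), while the difference stayed between -0.20 and -0.15 when any mouse was left out. Xbp1 is abundant in plasma cells, and the 9 plasma and B cell markers also had lower means, with a median difference of -0.19 and none called, whose part in the result was not tested. Values are per gene, so the spliced and the unspliced forms of Xbp1 mRNA were not separated.

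Atf6, the membrane-bound factor that is released by proteolysis, ran from -0.14 to -0.054 after ozone (median -0.094) and from -0.067 to 0.072 in filtered air (median -0.0072). Of the ozone mice, 4 of 6 lay below every filtered-air mouse. The difference of -0.091 (SE 0.035) did not pass the test (limma's adjusted p = 0.191). Ern1, which encodes IRE1 itself, ran from -0.15 to 0.013 after ozone (median 0.0049) and from -0.13 to 0.12 in filtered air (median -0.0043). Its groups overlapped widely, and the difference of -0.035 had a 95% interval from -0.13 to 0.064 (limma's adjusted p = 0.784). It was -0.0089 without ozone mouse 1, -0.0090 without filtered-air mouse 5 and -0.064 without filtered-air mouse 3.

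**Figure D2:**
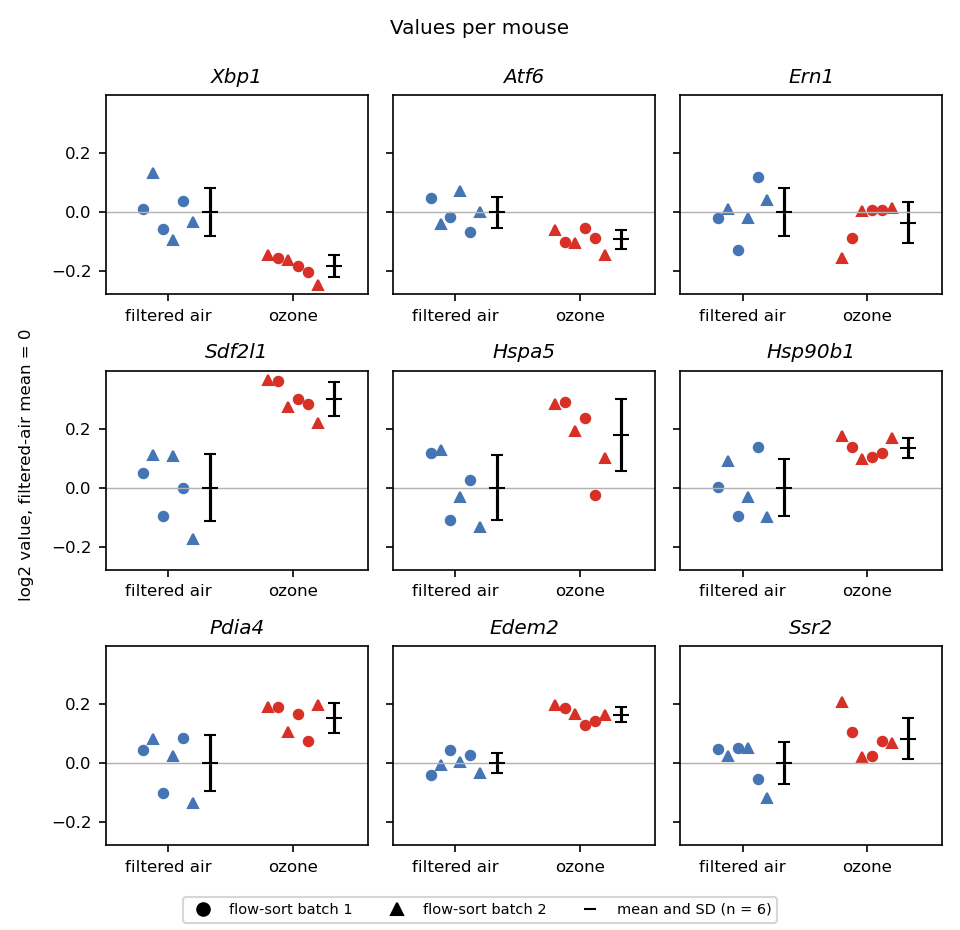
Values of 9 members in each mouse (vertical axis, log2 with the filtered-air mean at 0) for filtered air (blue) and ozone (red), with circles for flow-sort batch 1, triangles for batch 2, and the mean and SD of 6 mice as bars. The groups of Xbp1, Sdf2l1 and Edem2 do not overlap, while those of Hspa5, Hsp90b1, Pdia4, Atf6, Ern1 and Ssr2 do.

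All 14 chaperones had a higher mean after ozone, with differences from 0.028 to 0.30 and a median of 0.066, and 1 of them, Sdf2l1, passed the test. Sdf2l1 (chr16:17130138-17132383) encodes an ER-resident partner of the HSP40 protein that DNAJB11 encodes, and is a known target of the unfolded protein response. Its values ran from 0.22 to 0.36 after ozone (median 0.29) and from -0.17 to 0.11 in filtered air (median 0.025). Every ozone mouse lay above every filtered-air mouse. Sdf2l1 rose by 0.30 (SE 0.052, 95% interval 0.19 to 0.41, limma's adjusted p = 0.00513), a ratio of 1.23 on this scale, and it kept its call when any mouse was left out.

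Hspa5 encodes BiP, the HSP70 of the ER lumen and a widely used reporter of ER stress. It ran from -0.024 to 0.29 after ozone (median 0.21) and from -0.13 to 0.13 in filtered air (median -0.0026). Of the ozone mice, 4 of 6 lay above every filtered-air mouse, while ozone mice 5 and 6, at -0.024 and 0.101, lay within the filtered-air range. The difference of 0.18 (SE 0.063, 95% interval 0.045 to 0.31) was the second largest of the chaperones but did not pass the test (limma's adjusted p = 0.142), with an SD of 0.12 among the ozone mice.

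Hsp90b1, which encodes GRP94, the HSP90 of the ER, ran from 0.097 to 0.18 after ozone (median 0.13) and from -0.099 to 0.14 in filtered air (median -0.016). Its difference was 0.13 (SE 0.045, limma's adjusted p = 0.126), and it passed the test only without filtered-air mouse 5 (0.16, limma's adjusted p = 0.0472), the highest mouse of its group. Calr, the luminal lectin chaperone calreticulin, differed by 0.11 (limma's adjusted p = 0.186), with 5 of 6 ozone mice above every filtered-air mouse. Canx, its membrane-bound counterpart calnexin, differed by 0.050 (adjusted p = 0.673).

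Among the co-chaperones of BiP, Dnajb9 had a difference of 0.099, the widest spread of the members (SD 0.20 after ozone and 0.16 in filtered air) and limma's adjusted p of 0.675. Dnajb11 and Dnajc3 (P58IPK), also HSP40 proteins of the ER, had differences of 0.065 and 0.028. Hyou1, a large HSP70-like exchange factor for BiP, differed by 0.074, and Hspa13, another HSP70 family member, by 0.057. Manf, a small secreted protein that is induced by ER stress, differed by 0.067, with an SD of 0.16 after ozone. The prolyl isomerases Ppib, Fkbp2 and Fkbp11 differed by 0.065, 0.040 and 0.030. None of these 9 genes passed the test. Single mice moved 8 of them, all but Dnajb11, by over 1.5 times, with the lowest values at 0.0013 for Fkbp11 and 0.047 for Dnajb9 without filtered-air mouse 6, and at 0.0059 for Dnajc3, 0.018 for Fkbp2 and 0.035 for Ppib without ozone mouse 1. The sign of none of the 14 chaperones and 5 isomerases turned when any mouse was left out.

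All 5 disulfide isomerase genes had a higher mean after ozone, with a median difference of 0.12, and none passed the test at an adjusted p under 0.05 in limma, while 3 had an unadjusted p under 0.05, beside 16.7% of all genes. Pdia4 (ERp72), a disulfide isomerase of the ER lumen, ran from 0.075 to 0.20 after ozone (median 0.18) and from -0.13 to 0.086 in filtered air (median 0.033). Of the ozone mice, 5 of 6 lay above every filtered-air mouse. Its difference of 0.15 (SE 0.046, limma's adjusted p = 0.0826) was the largest of the class. Pdia6 differed by 0.12 (adjusted p = 0.208) and Creld2, an ER protein with isomerase activity, by 0.12 (adjusted p = 0.204). Pdia3, which works with calnexin and calreticulin, differed by 0.052 and P4hb, the founding member of the family, by 0.035.

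Genes of ER-associated degradation did not share a direction, with 7 higher and 4 lower means among 11. Edem2 (chr2:155701673-155729475) rose. It encodes a mannosidase-like protein that starts the trimming of N-glycans on misfolded glycoproteins. Its values ran from 0.13 to 0.20 after ozone (median 0.17) and from -0.039 to 0.046 in filtered air (median -0.00034). The groups did not overlap and the spread was narrow, with an SD of 0.025 after ozone and 0.033 in filtered air. The rise was 0.16 (SE 0.032, 95% interval 0.096 to 0.23, limma's adjusted p = 0.00961), and it kept its call when any mouse was left out.

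Edem1, a relative of Edem2 and a known target of XBP1, had a difference of -0.028 (limma's adjusted p = 0.866), with ozone mice from -0.25 to 0.095, and 0.021 without ozone mouse 5, the lowest. Herpud1, which organizes the degradation complex at the ER membrane, had a difference of -0.043 (adjusted p = 0.813). The ubiquitin ligase Syvn1 (HRD1) and its partner Sel1l had differences of 0.053 and 0.059. Os9, a lectin that hands substrates to this ligase, differed by 0.078 (adjusted p = 0.248), with 5 of 6 ozone mice above every filtered-air mouse. Derl1, Derl2 and Derl3, which encode derlins of the retrotranslocation channel, differed by 0.013, 0.099 and 0.055. The selenoproteins Selenos and Selenok, which sit in the same membrane complexes, differed by -0.0017 and -0.026. When 1 mouse was left out the sign turned in Edem1, in Selenos (6 of 12 mice), in Selenok (0.00028 without ozone mouse 6) and in Derl1 (-0.020 without ozone mouse 1 and also without filtered-air mouse 6). Apart from Edem2, the smallest adjusted p of these genes was that of Os9.

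None of the 5 genes of the translocon and of ER export passed the test in limma, and none had an unadjusted p under 0.05. Ssr2, a subunit of the translocon-associated protein complex, ran from 0.020 to 0.21 after ozone (median 0.072) and from -0.12 to 0.053 in filtered air (median 0.035). The groups overlapped, and the difference was 0.083 (SE 0.044, limma's adjusted p = 0.380), or 0.055 without ozone mouse 1. Ssr1, of the same complex, had a difference of -0.040. The channel subunits Sec61a1 and Sec61b differed by 0.015 and 0.038. Sec24d, a cargo adaptor of the COPII coat, differed by 0.067, with an SD of 0.12 after ozone.

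Mice of the same exposure differed in the level of the chaperones as a class. The mean of the 14 chaperones ran from 0.016 to 0.18 after ozone (median 0.096) and from -0.11 to 0.077 in filtered air (median 0.0045), and 4 of 6 ozone mice lay above every filtered-air mouse. Ozone mouse 1, at 0.18, was the highest, and it held the top value of its group in 12 of the 19 chaperones and isomerases. Filtered-air mouse 6, at -0.11, was the lowest, and it held the bottom value of its group in 14 of these 19. Ozone mice 5 and 6 had chaperone means of 0.026 and 0.016, below filtered-air mice 1 and 2 at 0.074 and 0.077. The mean of the 3 sensor and transcription factor genes ran from -0.13 to -0.077 after ozone and from -0.068 to 0.034 in filtered air, without overlap. Of these genes Xbp1 alone separated the groups, while those of Atf6 and Ern1 overlapped.

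**Figure D3:**
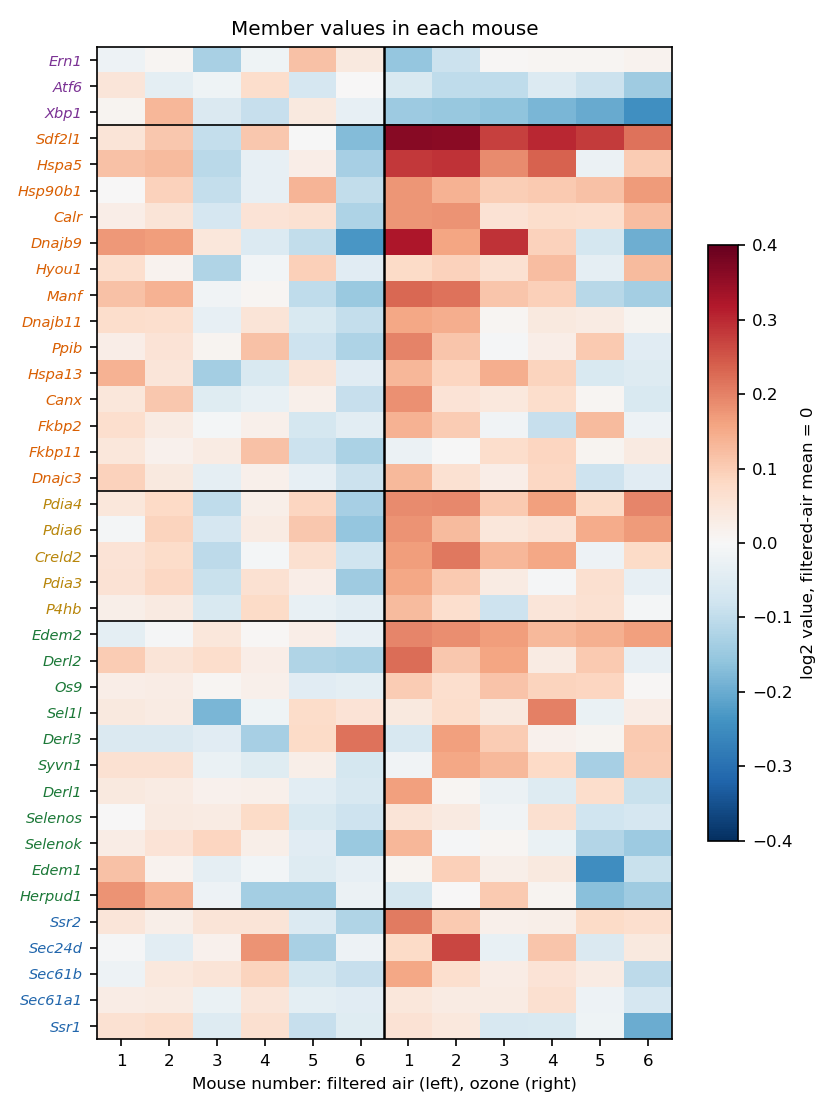
Value of each member (rows, coloured by class as in the plot of differences) in each mouse (columns), with red above and blue below the filtered-air mean on a log2 scale. Ozone mouse 1 and filtered-air mouse 6 stand at opposite ends across the chaperones, and Sdf2l1 and Edem2 are red and Xbp1 blue in all 6 ozone mice.

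In both flow-sort batches the differences of the called members had the same sign. Sdf2l1 differed by 0.33 in batch 1 and by 0.27 in batch 2, Edem2 by 0.14 and 0.19, and Xbp1 by -0.18 and -0.19, with 3 mice against 3 in each. None of the 3 passed the test in a batch taken alone, where the smallest of limma's adjusted p-values was 0.0518, for Sdf2l1 in batch 1. Over all members 32 of 38 had the same sign in both batches, and over all genes 12511 of 19633 did. Among the chaperones this held for 14 of 14, among the isomerases for 4 of 5, the exception being P4hb (0.081 and -0.012), and in the translocon and export class for 2 of 5. In limma's test of the difference between batches, 0 members had an adjusted p under 0.05 and 0 an unadjusted p under 0.05, beside 0% and 2.6% of all genes.

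**Figure D4:**
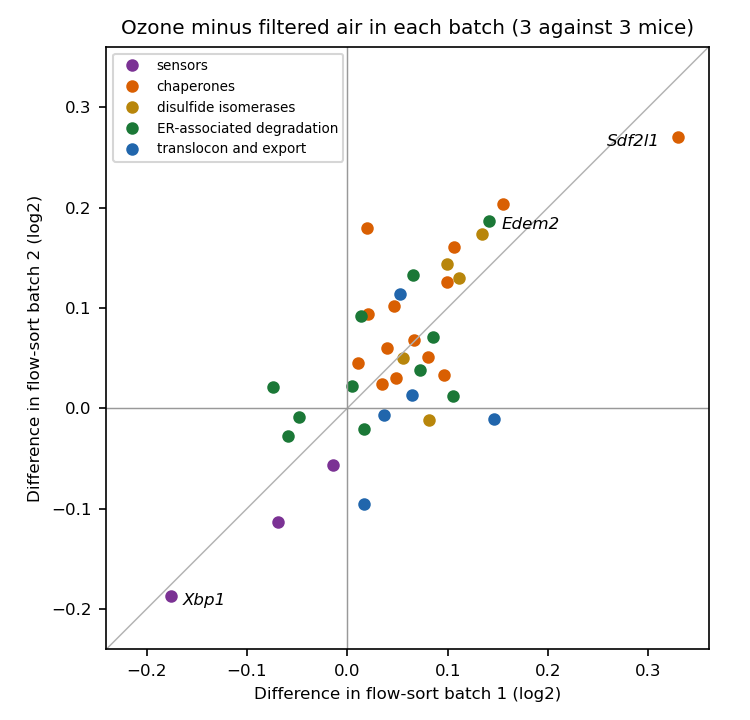
Ozone minus filtered air (log2) in flow-sort batch 1 (horizontal axis) and batch 2 (vertical axis), 3 against 3 mice each, with 1 point for each member coloured by class and equal differences on the diagonal line. The called genes Sdf2l1, Edem2 and Xbp1 lie near the diagonal at 0.33 and 0.27, 0.14 and 0.19, and -0.18 and -0.19.

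The 9 members with the printed ERSE (Hspa5, Hsp90b1, Calr, Canx, Dnajc3, Pdia6, Creld2, Syvn1 and Derl3) all had a higher mean after ozone, with differences from 0.028 to 0.18 and a median of 0.11. None of them passed the test in limma, while 5 had an unadjusted p under 0.05 (55.6%, beside 16.7% of all genes tested). The motifs were chosen after these differences had been seen, so the share is a description and not a test. Among the 22 members with a window and no match, 15 had a higher mean and the median was 0.046, and among the 7 without a window 6 had a higher mean and the median was 0.057. Of the 9 members with the element 7 are chaperones or isomerases, and the 12 chaperones and isomerases without a match or a window also all had a higher mean (median 0.065). These 22 include all 3 called members, beside 4.25% of all genes called. Of the genes outside the set with the same element, 12 were among the genes tested. Their means were higher in 2 and lower in 10, with a median of -0.024, and none passed the test, with 1 at an unadjusted p under 0.05. With 1 of the 10 fixed letters free, Derl2, Fkbp2, Pdia3, Pdia4 and Sel1l also held the element, so the split rests on the exact letters. Whether the element has a part in the differences was not tested.

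**Figure D5:**
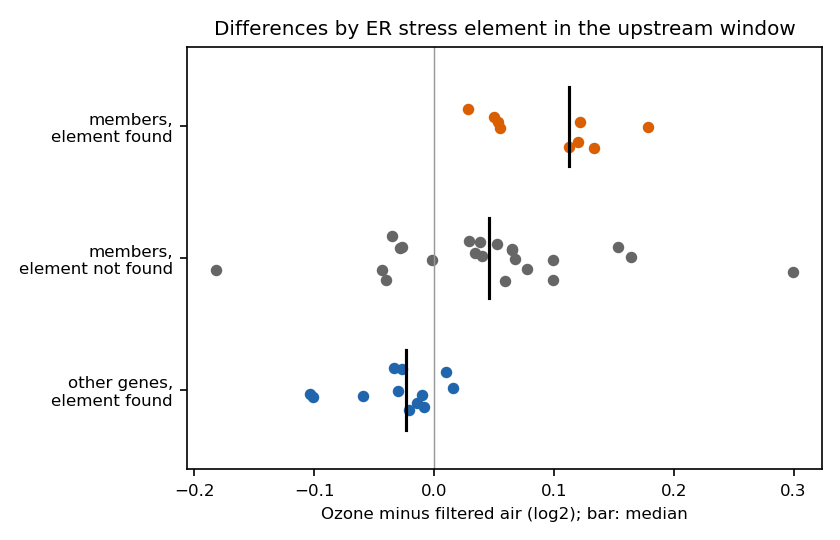
Ozone minus filtered air (horizontal axis, log2) for the 9 members with the ERSE upstream, the 22 members with a window and no match, and the 12 other tested genes with the ERSE. Points are genes, spread vertically for legibility, and bars are medians at 0.11, 0.046 and -0.024. The motifs were chosen after the differences had been seen.

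The wider pathway was read from a list of 88 further genes, of which 86 were tested. Of these, 5 passed the test in limma, 2 higher and 3 lower, a share of 5.81% near the 4.25% of all genes (2.41% higher and 1.84% lower), and the median difference was -0.0033, beside -0.0033 over all genes. The 3 lower genes belong to the PERK branch, which is shared with the amino acid response, and were listed in a class of 16 genes with this branch and other transmembrane factors, 7 with a higher and 9 with a lower mean. Atf4, its transcription factor, fell by 0.19 (SE 0.035, limma's adjusted p = 0.00729), from between -0.038 and 0.047 in filtered air to between -0.27 and -0.13 after ozone. Ddit3 (CHOP), a target of ATF4, fell by 0.24 (SE 0.051, limma's adjusted p = 0.0172), and Trib3, a pseudokinase and target of both, fell by 0.35 (SE 0.048, limma's adjusted p = 0.00142). In each of these 3 genes all 6 ozone mice lay below every filtered-air mouse, and the call held when any mouse was left out. After quantile normalization Atf4 and Ddit3 did not pass (limma's adjusted p = 0.0600 and 0.123), with differences of -0.16 and -0.20. Among the genes of the branch that did not pass, the kinase PERK itself (Eif2ak3) had a difference of 0.098 (limma's adjusted p = 0.384), with ozone mice from -0.036 to 0.25. Its substrate subunit Eif2s1 had a difference of -0.16 (limma's adjusted p = 0.524), with a wide spread of the ozone mice, from -0.50 to 0.24. The phosphatase subunits Ppp1r15a and Ppp1r15b differed by 0.11 and -0.086 (limma's adjusted p = 0.372 and 0.315), and the ATF4 target Chac1 by -0.034 (0.734).

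The 2 higher genes act in oxidative folding, a class of 11 genes with 6 higher and 5 lower means. Prdx4, a peroxiredoxin of the ER, ran from 0.10 to 0.26 after ozone and from -0.22 to 0.14 in filtered air, a rise of 0.22 (SE 0.055, limma's adjusted p = 0.0391). Erp29, a thioredoxin-fold protein of the ER lumen, ran from 0.055 to 0.20 and from -0.080 to 0.066, a rise of 0.15 (SE 0.038, limma's adjusted p = 0.0401). In both, 5 of 6 ozone mice lay above every filtered-air mouse. Both calls were close to the threshold, and both were lost with a variance trend (limma's adjusted p = 0.0511 for Prdx4 and 0.0510 for Erp29) and after quantile normalization (0.292 and 0.18, with differences of 0.19 and 0.13). Erp29 also lost its call with RNA integrity as a covariate (0.0526). That of Erp29 held in 2 of the 12 fits without a mouse (without filtered-air mouse 2 or ozone mouse 6), and that of Prdx4 in 4 (without filtered-air mouse 2, 3 or 5 or ozone mouse 6), with limma's adjusted p-values up to 0.0881 and 0.0864. Of 14 genes of N-glycosylation and the calnexin cycle, 12 had a higher mean, with a median difference of 0.054 and none past the test. An unadjusted p under 0.05 in limma was reached by 3 of them, all higher (21.4%, beside 16.7% of all genes). In 1 of these, the glucosidase II subunit Prkcsh, all 6 ozone mice lay above every filtered-air mouse, with a difference of 0.11 (limma's adjusted p = 0.0700). Further genes of degradation (4 higher and 11 lower of 15), of the translocon and signal peptidase (7 and 11 of 18) and of ER export and retrieval (5 and 7 of 12) held none that passed, and 0 with an unadjusted p under 0.05.

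Plasma cells are rich in several members, among them Xbp1, Sdf2l1, Creld2, Manf, Derl3 and Fkbp11. The 9 listed plasma and B cell markers, all among the genes tested, had lower means after ozone in 9 of 9, with a median difference of -0.19 and none past the test. The mean of this list ran from -0.42 to -0.044 after ozone and from -0.21 to 0.26 in filtered air, so its direction was that of Xbp1 (-0.18) and opposite to that of the chaperones and Sdf2l1. The defining plasma cell genes Jchain, Mzb1 and Tnfrsf17 had differences of -0.095, -0.17 and -0.00014, while Ighm (-0.41), Igkc (-0.33) and Cd79a (-0.29) differed more. An unadjusted p under 0.05 in limma was reached by 4 of the 9 markers (44.4%, beside 16.7% of all genes), with a smallest adjusted p of 0.0853. Markers of neutrophils, monocytes, dendritic cells, T and NK cells, epithelium, endothelium and fibroblasts held 2 called genes among 40 tested, Cxcr2 higher and Epcam lower, and in none of these lists did the means per mouse separate the groups. The part of other cells in the differences of the members was not tested.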

How the data were processed

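The deposited table gives 1 column per mouse. Per the file's name, the authors variance-stabilized the data and corrected them for batch, and the deposited values are on a log2 scale. The submitters' processing notes name cutadapt, STAR 2.7.7a, Salmon 1.5.2, DESeq2 1.26.0, R 3.6.0, limma 3.42.2 and the build mm10, without their roles; the annotation and the treatment of reads shared by related genes are not given in the sources used here. All 12 columns matched a sample title and 0 were left over. The filtered-air mean and the difference between the flow-sort batch means were 0 to 6 decimals in every gene.

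Of 25444 genes that were not constant, 19633 were kept, with at least 6 of 12 mice above the lowest value shared within a batch (tolerance 1e-06). Ozone and filtered air were compared by linear models (limma 3.58.1, R 4.3.3) that held flow-sort batch as covariate and no variance trend, and p-values were adjusted over all genes kept (Benjamini-Hochberg, threshold 0.05). The code was tested on simulated data. Members described in full are those called, the one with the smallest p and the largest difference of each class, and Hspa5, Hsp90b1, Xbp1, Atf6 and Ern1. Other pathway genes are named in full where called. Eif2ak3, Eif2s1, Ppp1r15a, Ppp1r15b, Chac1, Prkcsh and single markers were named after their values were seen. The members, lists, classes and this rule were chosen with earlier results of these data known, and the motifs after the differences had been seen. Promoter windows are RefSeq's (GRCm38.p6); Ero1a and Ero1b were matched through RefSeq synonyms. Arithmetic was done in Python 3.11.15.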

Additional observations from a re-analysis of the deposited data

Results flagged for a closer look

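In 1 of 76 combinations of a member and a group, a mouse lay far from the other 5, where chance gives about 1 in 20 (3.8). Filtered-air mouse 3 had a Sel1l value of -0.18, with the next lowest at -0.017 and a gap of 0.646 of the group's range. Without it the difference of Sel1l was 0.019 (limma's adjusted p = 0.901).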

How the results depend on the processing

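The 2 members called higher and the 1 called lower kept these counts without the filter, with all 12 mice above the shared minimum, with a variance trend, in the robust fit, without a covariate and with RNA integrity as a covariate. Quantile normalization gave 0 higher and 0 lower, with 171 of all genes called in place of 834; at an unadjusted p under 0.05 in limma it left 4 members higher and 1 lower (13.2%, beside 10.8% of all genes). Batch 1 alone gave 0 and 0 with 90 of all genes, and batch 2 alone 0 and 0 with 0 of all genes, each with 3 mice against 3. In batch 1 an unadjusted p under 0.05 in limma was reached by 3 members (7.9%), beside 2167 genes (11.04%). In batch 2 it was reached by 6 members (15.79%), beside 1800 genes (9.17%). The exact permutation test of 6 against 6, two-sided and unadjusted, put 9 members higher and 2 lower under 0.05 (28.9%, beside 18.2% of all genes), with 0.00216 the smallest p it can give. Without single mice, 2 to 3 members were called higher, 0 to 1 lower and 538 to 751 of all genes, the lowest without filtered-air mouse 1, and 29 to 32 members had a higher mean. The chaperones and isomerases had a higher mean in 19 of 19 in all settings run except batch 2 alone (18). Of 308 repeats in limma over the 14 genes described in full, 259 kept direction and call, 48 lost the call, 1 gained it (Hsp90b1 without filtered-air mouse 5) and 0 reversed. Of those lost, 16 concern Erp29 and 12 Prdx4. With 1 of the 10 fixed letters free, a choice made after seeing the data, 14 members held the ERSE beside 1.51% of all genes with a window, Sdf2l1, Edem2 and Xbp1 not among them; the whole window gave 9.

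Both groups use replicate numbers 1 to 6 for different animals, and the deviations of same-numbered mice correlated by -0.0026 to 0.28, with 4 of 6 over 0.1, and 6 of 12 mice correlated best with their own number in the other group. Pairing would have needed every pair over 0.1, and mice were not treated as paired. With the replicate block, 853 genes, 2 higher members and 1 lower were called, and of the genes described in full only Erp29 lost its call (adjusted p 0.0685 in limma). Leaving out 1 mouse moved the difference by over 1.5 times in 25 of the 35 members not called and in 0 of the 3 called. The number of reads behind a value is unknown, which limits what can be said of members with small differences.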
